A study of Homo sapiens with 6 samples.

Results

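The genes described here are 34 genes of the unfolded protein response and of ATF4 signalling, out of 36651 genes with a level in the deposited table. They were chosen by symbol, and all 34 were found. Each was placed in 1 of 3 branches by its known regulation and its role. The ATF4 branch held 13 genes, the ATF6 branch 12 and the XBP1 branch 9. All genes for protein folding were placed in the ATF6 branch and all genes for protein degradation in the XBP1 branch. A contrast between these branches is thus also one between folding and degradation. Levels were measured by sequencing polyA RNA of HCT116 cells, an established epithelial line of a human colorectal carcinoma. They are given as FPKM, fragments scaled by the length of the gene and the size of the library. The 6 libraries fall into 2 groups: 3 libraries labelled siMTA1, from HCT116 cells in which MTA1 was targeted, and 3 control libraries from HCT116 cells. The treated samples read siMTA in their descriptions and CrMTA1 in their titles, so whether RNA interference or a change to the genome was used is uncertain, and the sources used here do not say whether they come from 1 selected clone. The controls read Ctrl in their descriptions and WT in their titles, and whether they received a control RNA is likewise not stated. The descriptions of all 6 samples also hold the mark 3rd, which the sources used here do not explain. No label says that the libraries of a group came from separate cultures, so the spread between libraries, and with it every p-value, may be technical. MTA1 encodes part of NuRD, which moves nucleosomes and removes acetyl groups from histones, and the comparison asks which transcripts differ where it is lowered.

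The unfolded protein response is the reaction of a cell to misfolded protein in the endoplasmic reticulum (ER). It starts from 3 sensors in the ER membrane. PERK, the product of EIF2AK3, phosphorylates the initiation factor eIF2, which slows translation in general while the transcription factor ATF4 is translated more. The second sensor, ATF6, is cut in the Golgi and its freed part enters the nucleus. The third, IRE1, the product of ERN1, splices the XBP1 transcript. ATF4 also serves other kinases that sense missing amino acids, haem or viral RNA, and this wider use is called the integrated stress response. Because ATF4, ATF6 and XBP1 are switched on by translation, cleavage and splicing, the level of their transcripts is not a measure of their activity. Cleavage, phosphorylation and XBP1 splicing were not analysed here.

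The steps of the low values of short genes implied 57400000 to 67100000 fragments in the siMTA1 libraries and 43400000 to 65200000 fragments in the control libraries, of which control library 1 was the shallowest. MTA1 stood at 44.6, 44.0 and 48.0 FPKM in the siMTA1 libraries, against 65.9, 67.6 and 66.7 FPKM in the control libraries, a log2 difference of −0.54 (SE 0.06, limma adjusted p = 0.000376). Of 7 epithelial and colon markers, EPCAM, CDH1, KRT8, KRT18, KRT19 and CDX2 were expressed, and VIL1 averaged 0.0167 FPKM with siMTA1 and 0.02 FPKM in control. These markers moved with the groups: KRT8 (adjusted p = 0.0148) and KRT18 (0.0336) were called lower with siMTA1 and CDH1 (0.00874) higher. The 7 summed to between 5656 and 6301 FPKM in siMTA1 libraries and between 6555 and 6869 FPKM in control libraries, and their part in the results below was not tested. The 2 leukocyte markers in the table, CD3E and CD68, summed to between 0.36 and 0.42 FPKM in siMTA1 libraries and between 0.21 and 0.38 FPKM in control libraries, and the endothelial markers PECAM1 and CDH5 to 0.07 FPKM at most. The 4 fibroblast markers summed to between 2.17 and 2.76 FPKM in siMTA1 libraries and between 1.93 and 2.01 FPKM in control libraries, and their part was likewise not tested. Nearly all of that sum was COL1A1, at 2.13, 2.65 and 2.33 FPKM with siMTA1, against 1.90, 1.79 and 1.97 FPKM in control (log2 fold change 0.22, adjusted p = 0.0671), while DCN was listed at 0. The test was limma on log2(FPKM + 1) over 12141 genes averaging 1 FPKM or more, two-sided, and a gene counts as called where its adjusted p is under 0.05. A log2 fold change is siMTA1 over control after adding 1 to each FPKM, so that changes of low genes are understated.

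Some transcripts of the response differed, and the members called in the fit described here were all higher with siMTA1. That depended on the filter and on the fit. NUPR1, which lay under the filter on low values, averaged 0.34 FPKM with siMTA1 and 0.677 FPKM in control. It was called lower at a filter of 0.1 FPKM (limma adjusted p = 0.0204) and not without a filter (0.0615). TRIB3 was called lower in 4 of 20 alternative settings. Of the 34 genes, 32 passed the filter on low values and 8 were called higher with siMTA1. None was called lower by limma at an adjusted p under 0.05, while 1 was lower and 12 were higher at an unadjusted p under 0.05. Over all tested genes 6.13% were called higher and 12.1% lower, and at an unadjusted p under 0.05 11.5% were higher and 23.5% lower. The 8 were ATF5, DDIT4, EIF2AK3, ASNS and CHAC1 of the ATF4 branch and CANX, HYOU1 and P4HB of the ATF6 branch. No gene of the XBP1 branch was called. The differences were modest: the mean FPKM of the 8 genes was between 22.6% and 60.8% higher with siMTA1. The median log2 fold change was 0.13 over the 32 members and −0.05 over all tested genes. It was 0.16 for the 12 tested genes of the ATF4 branch, 0.15 for the 12 of the ATF6 branch and 0.04 for the 8 of the XBP1 branch. In 14 of the 32 genes every siMTA1 library was above every control library, and in 2 every siMTA1 library was below. The share of all tested genes without overlap was 13.2% for higher and 25.9% for lower. In whole cultures, a different mix of cells and a different amount of RNA per cell cannot be told apart. With median centring, which puts the median gene of each library at the same level, 12 members were called higher, and over all genes 1128 were higher and 802 lower, against 744 and 1463 without centring.

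**Figure D1:**
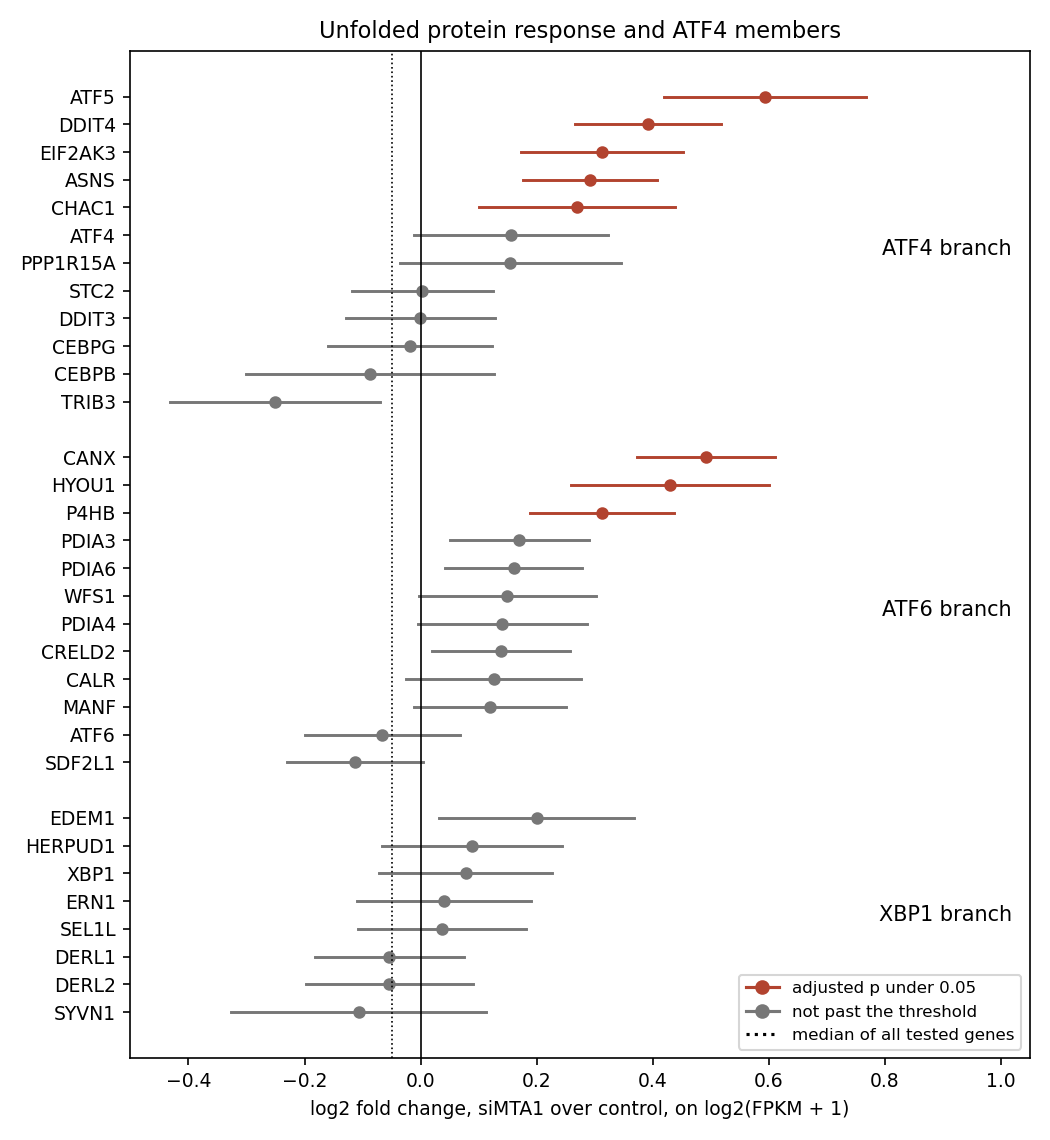
Log2 fold change of the 32 tested members, siMTA1 over control, by branch. Points are limma estimates, bars are 95% confidence intervals (n = 3 libraries each), red marks an adjusted p under 0.05 and the dotted line is the median of all tested genes, −0.05. The 8 red genes lie between 0.27 for CHAC1 and 0.59 for ATF5, and none of them is in the XBP1 branch.

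In the ATF4 branch the sensor gene rose and the transcript of ATF4 itself was not called. EIF2AK3, on chromosome 2 from 88556741 to 88627576 on the minus strand (GENCODE 29, GRCh38), stood at 4.53, 4.98 and 5.02 FPKM in the siMTA1 libraries, against 3.67, 3.84 and 3.59 FPKM in the control libraries. The groups did not overlap, and the mean was 30.9% higher with siMTA1 (adjusted p = 0.00997, log2 fold change 0.31, SE 0.06). ATF4 had 190.2, 203 and 202 FPKM with siMTA1, against 159, 186 and 191 FPKM in control. Control libraries 2 and 3 were close to siMTA1 library 1, and control library 1 was low. The log2 fold change of ATF4 was 0.16, with a 95% confidence interval of −0.01 to 0.32 (adjusted p = 0.168), and 0.07 without control library 1.

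Among the other transcription factors of this branch, ATF5 stood out. ATF5 is a relative of ATF4 that is also controlled at translation and that serves the mitochondrial stress response. Its gene spans 49928702 to 49933935 of chromosome 19, plus strand. Its level was 8.05, 9.36 and 7.85 FPKM in the siMTA1 libraries, against 4.79, 5.42 and 5.50 FPKM in the control libraries. The lowest siMTA1 library was well above the highest control library. This was the largest log2 fold change of the 32 tested members (0.59, SE 0.08, adjusted p = 0.00152). Exons of NUP62 on the opposite strand cover 21.2% of the exon bases of ATF5, and the sources used here do not say whether strand was used in counting. DDIT3, which codes for CHOP, the factor tied to cell death under lasting ER stress, had 62.8, 66.6 and 62.3 FPKM with siMTA1, against 61.5, 67.2 and 63.1 FPKM in control. The ranges lay over each other, and the 95% confidence interval of the log2 fold change ran from −0.13 to 0.13. Exons of MARS on the opposite strand cover 27.2% of the exon bases of DDIT3. CEBPB and CEBPG code for partners of ATF4 in DNA binding, and neither was called. CEBPB averaged 45.0 ± 2.68 FPKM with siMTA1 and 48.2 ± 7.17 FPKM in control (SD, n = 3, limma adjusted p = 0.546). CEBPG averaged 25.5 ± 0.637 FPKM with siMTA1 and 25.9 ± 1.81 FPKM in control (SD, n = 3, limma adjusted p = 0.864). NUPR1, a stress-induced chromatin protein, was too low for the test. It was listed at 0.30, 0.36 and 0.36 FPKM in the siMTA1 libraries, against 0.60, 0.73 and 0.70 FPKM in the control libraries. Its groups did not overlap. It passed when the filter was lowered to 0.1 FPKM (log2 fold change −0.32, adjusted p = 0.0204) and did not pass when the filter was dropped (adjusted p = 0.0615).

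Target genes of ATF4 split into 3 that were called higher and others that were not. DDIT4, which codes for REDD1, an inhibitor of the growth kinase mTORC1, was the most abundant of the branch. It had 367, 364 and 395 FPKM in the siMTA1 libraries, against 278, 287 and 292 FPKM in the control libraries. The groups lay far apart relative to their spread, with a log2 fold change of 0.39 (SE 0.06, adjusted p = 0.00252). DDIT4 is also known as a target of hypoxia-inducible factors and of p53. Of 18 other tested targets of hypoxia-inducible factors, 12 were called higher with siMTA1 and 0 lower by limma. At an unadjusted p under 0.05, 14 were higher and 0 lower. Over all tested genes 6.13% were called higher, and 11.5% were higher at an unadjusted p under 0.05. These targets were chosen after their values were seen, so their count is not an independent test. ANKRD37 differed most, at 32.8 FPKM with siMTA1 and 5.14 FPKM in control. The summed level of that list, with CA9 below the filter included, was 713 to 852 FPKM in siMTA1 libraries and 524 to 570.3 FPKM in control libraries, and its part in the rise of DDIT4 was not tested. ASNS, the enzyme that makes asparagine, had 261, 256 and 271 FPKM with siMTA1, against 217, 212 and 214 FPKM in control. The 3 control values were nearly equal, and the log2 fold change was 0.29 (SE 0.05, adjusted p = 0.00638). An overlapping gene annotated on the same strand, AC079781.5, shares 44.6% of the exon bases of ASNS. CHAC1, which breaks down glutathione, had 8.38, 7.94 and 6.87 FPKM with siMTA1, against 6.05, 6.03 and 6.61 FPKM in control. Here siMTA1 library 3 was close to control library 3. The log2 fold change was 0.27 (SE 0.08, adjusted p = 0.0368), and the call ended without siMTA1 library 1 (adjusted p = 0.110) or 2 (0.112), and without control library 1 (0.0790) or 2 (0.120). It also ended with a filter of 0.1 FPKM (0.0636) and with none (0.148), so that CHAC1 was called in 14 of 20 alternatives. STC2, a secreted glycoprotein gene, averaged 25.7 ± 0.596 FPKM with siMTA1 and 25.7 ± 0.925 FPKM in control (SD, n = 3), with a 95% confidence interval of the log2 fold change from −0.12 to 0.12.

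Both feedback genes of the branch stayed short of the threshold, in opposite directions. TRIB3, a pseudokinase that restrains ATF4 and CHOP, had 11.8, 11.9 and 12.1 FPKM in the siMTA1 libraries, against 13.1, 13.8 and 16.6 FPKM in the control libraries. Every siMTA1 value was below every control value, and control library 3 was high. The log2 fold change was −0.25 (SE 0.08, adjusted p = 0.0577), and −0.16 without control library 3. TRIB3 passed the threshold without control library 1 (log2 fold change −0.32, adjusted p = 0.0306), with array weights, with the replicate number as a block and at a filter of 5 FPKM. PPP1R15A, which codes for GADD34, the phosphatase subunit that restores eIF2, had 53.8, 59.1 and 59.7 FPKM with siMTA1, against 45.0, 56.6 and 53.8 FPKM in control. Its groups overlapped (log2 fold change 0.15, adjusted p = 0.226), and the log2 fold change was 0.058 without control library 1 and 0.039 with array weights.

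**Figure D2:**
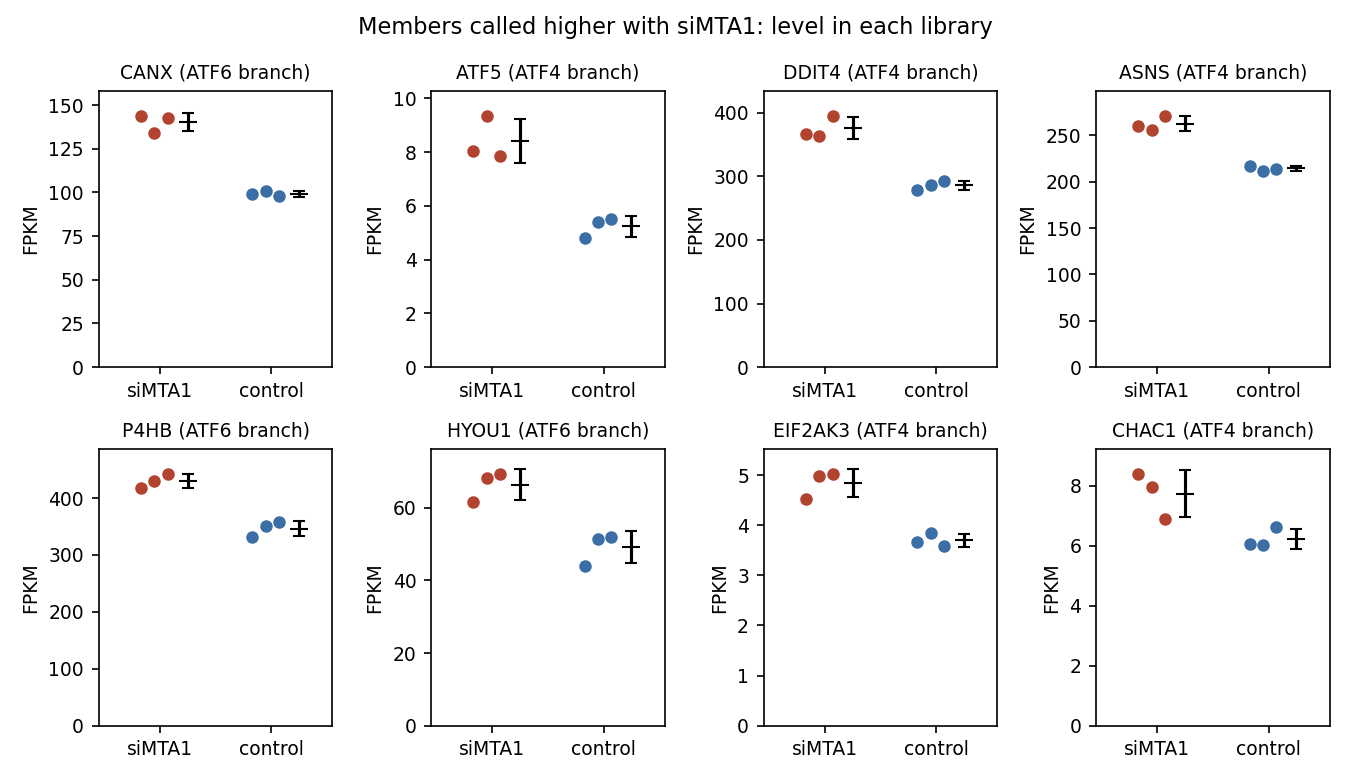
Level in FPKM of the 8 members called higher, in each siMTA1 library (red) and each control library (blue), with mean and SD in black (n = 3 each). All axes start at 0, and in each panel every red point is above every blue point, with the narrowest gap in CHAC1 (6.87 against 6.61 FPKM).

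Genes that answer to ATF4 carry a C/EBP-ATF response element, and the promoters of 2 of the called targets hold its core. The core was searched as TGATGNAA on both strands in windows of 300 bases, from 250 before to 50 after each annotated start (RefSeq, GRCh38.p14), in which 30 of the 34 members had an entry. It was found in 4 members and in 4.46% of all genes with a window. Some genes have several windows, and a gene counts here and below where any of its windows holds a match. ASNS also has a window without the core. The ASNS promoter shown was chosen because ASNS was called and this window holds the core, in capitals, 68 to 61 bases before its start. Next to it stand the stretches around the matches of CHAC1, which was called, and of CEBPG and HERPUD1, which were not. In CHAC1 and HERPUD1 the core reads on the opposite strand.
ASNS, chr7:97872359-97872658, minus strand: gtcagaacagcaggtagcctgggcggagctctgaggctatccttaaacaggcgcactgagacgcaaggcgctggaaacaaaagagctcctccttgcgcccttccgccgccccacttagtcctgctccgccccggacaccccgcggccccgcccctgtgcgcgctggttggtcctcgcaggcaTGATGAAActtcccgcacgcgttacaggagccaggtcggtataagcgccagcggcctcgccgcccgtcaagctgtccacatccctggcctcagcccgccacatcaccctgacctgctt
CHAC1, chr15:40953247-40953284, plus strand: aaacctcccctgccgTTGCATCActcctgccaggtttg
CEBPG, chr19:33374056-33374093, plus strand: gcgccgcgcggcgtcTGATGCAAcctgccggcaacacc
HERPUD1, chr16:56931951-56931988, plus strand: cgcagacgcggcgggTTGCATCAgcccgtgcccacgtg
The letters alone do not set these genes apart: the log2 fold change was 0.29 for ASNS and 0.27 for CHAC1, and −0.02 for CEBPG and 0.09 for HERPUD1. A match is a description of the sequence and no evidence of binding, and no window of ATF5, DDIT4 or EIF2AK3 held the core.

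In the ATF6 branch 3 genes rose. All 3 are for folding in the ER, as are 10 of the 12 genes placed in the branch. CANX, or calnexin, is the membrane-bound lectin that holds new glycoproteins until they are folded. Its gene spans 179678628 to 179730925 of chromosome 5, plus strand. It had 144, 134 and 142 FPKM in the siMTA1 libraries, against 99.3, 101 and 97.7 FPKM in the control libraries. The control values were nearly equal and every siMTA1 value was far above them. CANX had the smallest adjusted p of the members (log2 fold change 0.49, SE 0.05, adjusted p = 0.000525). HYOU1, a large ER chaperone of the HSP70 family that exchanges nucleotide on BiP and is also known to rise in hypoxia, spans 119044189 to 119057202 of chromosome 11, minus strand. It had 61.5, 68.3 and 69.2 FPKM with siMTA1, against 44.0, 51.4 and 51.8 FPKM in control. In each group library 1 was the lowest, and the groups did not overlap (log2 fold change 0.43, SE 0.08, adjusted p = 0.00647). Dropping the filter took the adjusted p of HYOU1 to 0.0586. P4HB, the protein disulfide isomerase that is also a subunit of collagen prolyl hydroxylase, spans 81843159 to 81860694 of chromosome 17, minus strand. It had 418, 431 and 442 FPKM with siMTA1, against 331, 350.3 and 357 FPKM in control (log2 fold change 0.31, SE 0.06, adjusted p = 0.00643). P4HA1, which codes for another subunit of that hydroxylase, belongs to the hypoxia list above. It averaged 37.1 FPKM with siMTA1 and 25.6 FPKM in control (limma adjusted p = 0.0105). Any part of that list in the rise of P4HB or HYOU1 was not tested.

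Of the other 7 folding genes of the branch, 6 had positive log2 fold changes and none of the 6 passed. PDIA3, PDIA4 and PDIA6 code for disulfide isomerases, CALR for calreticulin, the soluble counterpart of calnexin, and CRELD2 and MANF for small secreted or ER-resident proteins induced by ER stress. Their log2 fold changes were 0.17 for PDIA3, 0.14 for PDIA4, 0.16 for PDIA6, 0.13 for CALR, 0.14 for CRELD2 and 0.12 for MANF. PDIA3 was nearest to the threshold, at 171, 163 and 177 FPKM with siMTA1, against 151, 153 and 149 FPKM in control (adjusted p = 0.0539). PDIA6 had 80.9, 77.4 and 78.5 FPKM with siMTA1, against 71.4, 72.0 and 68.1 FPKM in control (adjusted p = 0.0608). In both genes the groups did not overlap, and both passed with the replicate number as a block (adjusted p = 0.0457 and 0.0407) and with median centring (0.0227 and 0.0265). CRELD2 had 21.9, 23.4 and 22.3 FPKM with siMTA1, against 20.4, 20.2 and 20.4 FPKM in control, also without overlap. It passed with median centring (adjusted p = 0.0401). MANF had 106, 111 and 106 FPKM with siMTA1, against 105, 95.1 and 97.0 FPKM in control, with control library 1 just below the lowest siMTA1 library (adjusted p = 0.174). CALR, the most abundant member, had 744, 783 and 779 FPKM with siMTA1, against 641, 735 and 742 FPKM in control. Control library 1 was again low, and the log2 fold change of CALR without it was 0.06. That of PDIA4 without it was 0.09.

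SDF2L1 went against its neighbours. SDF2L1 is an ER protein that works with BiP cochaperones and is known to be induced by ER stress. It had 22.1, 22.8 and 22.4 FPKM in the siMTA1 libraries, against 23.8, 25.1 and 24.2 FPKM in the control libraries. Every siMTA1 value was below every control value, but the difference did not pass (log2 fold change −0.11, SE 0.05, adjusted p = 0.156). Of the 10 folding and chaperone genes of the branch, 3 were called higher and 0 lower by limma (6 and 0 at an unadjusted p under 0.05, where 11.5% of all tested genes were higher). Without overlap in the higher direction were 8 of the 10, and 13.2% of all tested genes. Together the 10 genes made up 0.482%, 0.494% and 0.497% of the summed FPKM of the siMTA1 libraries, against 0.403%, 0.434% and 0.429% in the control libraries. The sensor gene ATF6 averaged 7.43 ± 0.380 FPKM with siMTA1 and 7.82 ± 0.244 FPKM in control (SD, n = 3, log2 fold change −0.07, adjusted p = 0.467). WFS1, wolframin, an ER membrane protein that promotes the breakdown of ATF6, averaged 8.77 ± 0.668 FPKM with siMTA1 and 7.80 ± 0.406 FPKM in control (SD, n = 3, log2 fold change 0.15, adjusted p = 0.149). The count of the branch depended on the scaling and on the fit, against 3 called higher in the fit described here. It was 5 under quantile normalization, 6 under upper-quartile scaling, 6 with median centring, 7 with array weights and 5 with the replicate number as a block. Over all tested genes these settings called 1011, 1000, 1128, 1434 and 992 higher in the same order, against 744 in the fit described here.

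**Figure D3:**
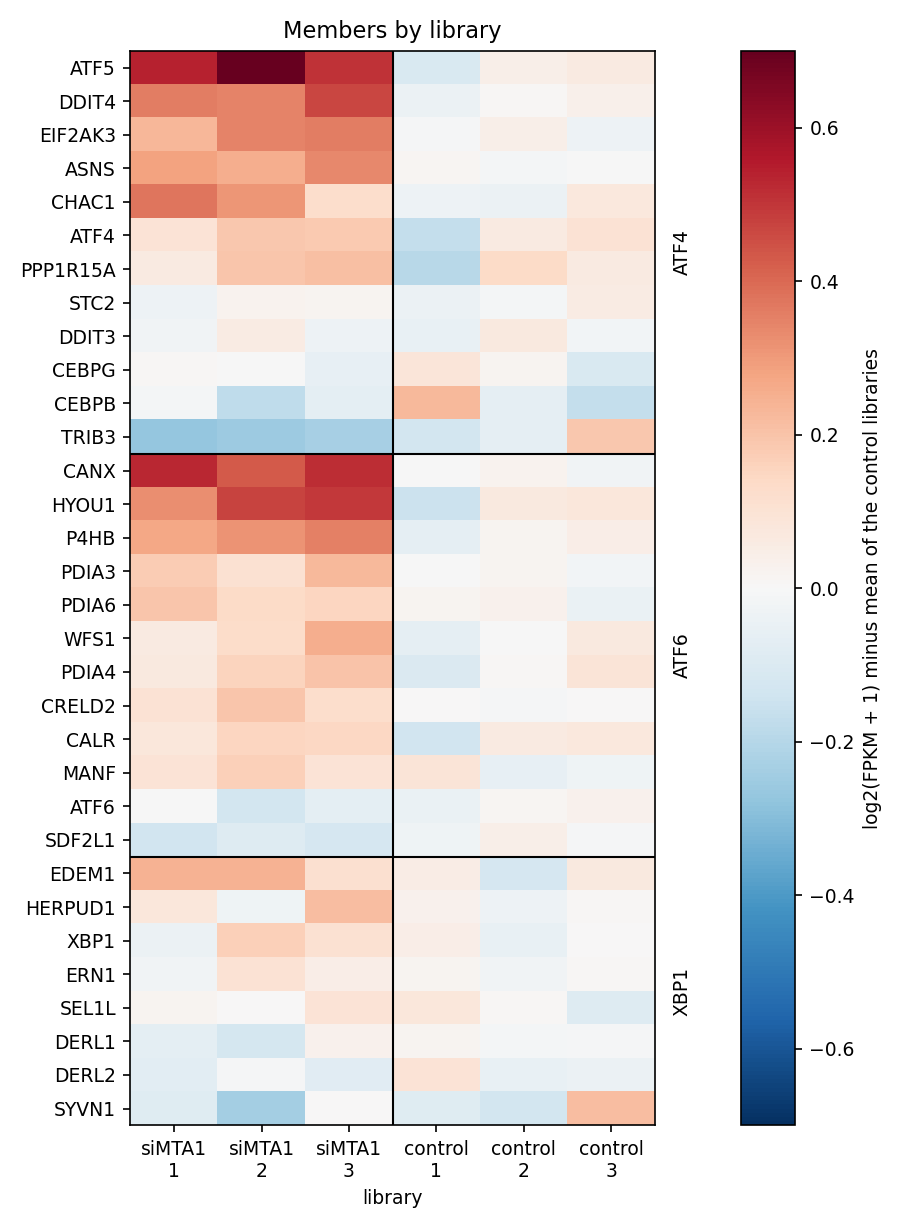
Each of the 32 tested members (rows, by branch) in each library (columns), as log2(FPKM + 1) minus the mean of the 3 control libraries, so red is above and blue below the control mean. Rows from ATF5 to CHAC1 and from CANX to P4HB are red in all 3 siMTA1 libraries, and control library 1 is the bluest control column for ATF4, PPP1R15A, HYOU1 and CALR.

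Promoters of ER stress genes carry the ER stress response element, bound by ATF6 and XBP1 together with the factor NF-Y. It was searched as CCAAT followed after 9 bases by CCACG, its second form as ATTGG followed after 1 base by CCACG, and the XBP1 and ATF6 element called UPRE as TGACGTGG, each on both strands in the same windows. The first was found in 5 of the 30 members with a window and in 0.0916% of all genes with one, the second in 3 members and 0.0696% of genes, and UPRE in 1 member and 0.927% of genes. The promoters of HYOU1 and CANX are shown because these are the 2 called members with a match. CANX has several windows, of which 1 with the match is shown and not all hold it. In HYOU1 the second form is present 2 times on the opposite strand, and the farther copy overlaps UPRE, so that both are printed as 1 run of capitals.
HYOU1, chr11:119057156-119057455, minus strand: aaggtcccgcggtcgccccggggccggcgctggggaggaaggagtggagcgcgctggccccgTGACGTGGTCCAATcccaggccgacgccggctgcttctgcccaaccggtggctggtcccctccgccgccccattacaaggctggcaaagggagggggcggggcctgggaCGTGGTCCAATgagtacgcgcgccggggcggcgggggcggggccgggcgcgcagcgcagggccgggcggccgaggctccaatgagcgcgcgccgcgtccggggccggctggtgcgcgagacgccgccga
CANX, chr5:179698679-179698978, plus strand: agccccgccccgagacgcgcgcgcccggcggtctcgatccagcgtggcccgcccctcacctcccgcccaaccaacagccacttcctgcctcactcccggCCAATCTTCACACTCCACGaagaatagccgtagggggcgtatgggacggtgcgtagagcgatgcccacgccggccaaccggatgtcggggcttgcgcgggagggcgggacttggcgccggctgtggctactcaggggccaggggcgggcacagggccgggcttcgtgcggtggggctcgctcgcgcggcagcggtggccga
The stretches around the matches of the 6 members that were not called follow, with the match in capitals. Those of PDIA6 and XBP1 read the first form as printed and those of CALR and CRELD2 on the opposite strand. SDF2L1 and HERPUD1 hold the second form, SDF2L1 on the opposite strand.
PDIA6, chr2:10812838-10812886, minus strand: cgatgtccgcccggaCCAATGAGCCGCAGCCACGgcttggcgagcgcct
CALR, chr19:12938369-12938417, plus strand: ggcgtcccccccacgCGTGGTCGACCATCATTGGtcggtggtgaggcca
CRELD2, chr22:49918539-49918587, plus strand: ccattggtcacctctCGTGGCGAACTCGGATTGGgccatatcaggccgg
XBP1, chr22:28800588-28800636, minus strand: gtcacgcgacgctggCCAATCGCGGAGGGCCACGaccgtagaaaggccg
SDF2L1, chr22:21642099-21642139, plus strand: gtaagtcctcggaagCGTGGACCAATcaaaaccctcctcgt
HERPUD1, chr16:56932010-56932050, plus strand: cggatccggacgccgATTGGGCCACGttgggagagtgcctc
Among members with a window, 2 of the 8 called higher and 6 of the 22 not called held at least 1 of these 3 elements. P4HB, called higher, had no match, which says only that these letters are not in its window. The log2 fold changes of the matching genes ran from −0.11 for SDF2L1 to 0.49 for CANX.

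No call was made in the XBP1 branch. None of its 8 tested genes passed in either direction by limma, and at an unadjusted p under 0.05 1 was higher and 0 lower, a share of 12.5% beside 11.5% higher over all tested genes. That gene was EDEM1, a lectin that passes misfolded glycoproteins to degradation. EDEM1 had 2.78, 2.77 and 2.45 FPKM in the siMTA1 libraries, against 2.30, 1.94 and 2.34 FPKM in the control libraries. Its groups did not overlap, though siMTA1 library 3 was close to control library 3 (log2 fold change 0.20, SE 0.08, adjusted p = 0.0910). With median centring the adjusted p of EDEM1 was 0.0433. XBP1 itself had 21.4, 25.0 and 23.9 FPKM with siMTA1, against 22.9, 21.3 and 22.1 FPKM in control. The ranges overlapped, and the 95% confidence interval of its log2 fold change was −0.07 to 0.23. The sensor gene ERN1 was low in both groups, at 1.55, 1.79 and 1.68 FPKM with siMTA1, against 1.63, 1.55 and 1.61 FPKM in control (adjusted p = 0.694).

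The other genes of this branch serve ER-associated degradation, in which misfolded proteins are drawn out of the ER and passed to the proteasome. HERPUD1, which organises the degradation complex, averaged 14.0 ± 1.28 FPKM with siMTA1 and 13.1 ± 0.304 FPKM in control (SD, n = 3, log2 fold change 0.09). SEL1L, the adaptor of the ubiquitin ligase, averaged 5.43 ± 0.219 and 5.27 ± 0.362 FPKM in siMTA1 and control libraries. SYVN1, the ligase itself, averaged 6.10 ± 0.584 and 6.67 ± 1.04 FPKM in siMTA1 and control libraries. FAU, a ribosomal gene at a mean of 339 FPKM, shares 398 exon bases with SYVN1 on the same strand, so the level of SYVN1 is uncertain. DERL1 and DERL2, which form part of the exit channel, had log2 fold changes of −0.05 each. DERL3 was listed at 0.01 FPKM in siMTA1 library 1 and at 0 in the other 5 libraries, and 77.0% of its exon bases lie under exons of SMARCB1 on the opposite strand. Over the 32 tested members the median coefficient of variation was 4.35% in siMTA1 and 4.88% in control libraries. Over all tested genes it was larger, at 6.18% and 6.44%. By branch, siMTA1 first, it was 4.13% and 6.15% for ATF4, 3.63% and 3.49% for ATF6, and 7.11% and 5.24% for XBP1.

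Other genes of the pathway, 153 listed by role, were compared in the same fit. Of the 137 tested, 12 were called higher and 15 lower, shares of 8.76% and 10.9% beside 6.13% and 12.1% over all tested genes. These calls were fragile: 3 of the 27 held with each of the 6 libraries left out in turn. The 3 were OS9, EIF2AK4 and GDF15. The count called higher was 6, 3 and 2 without siMTA1 library 1, 2 and 3, and 5, 1 and 7 without control library 1, 2 and 3. The count called lower was 6, 5 and 8 without the siMTA1 libraries in the same order, and 9, 3 and 8 without the control libraries.

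**Figure D4:**
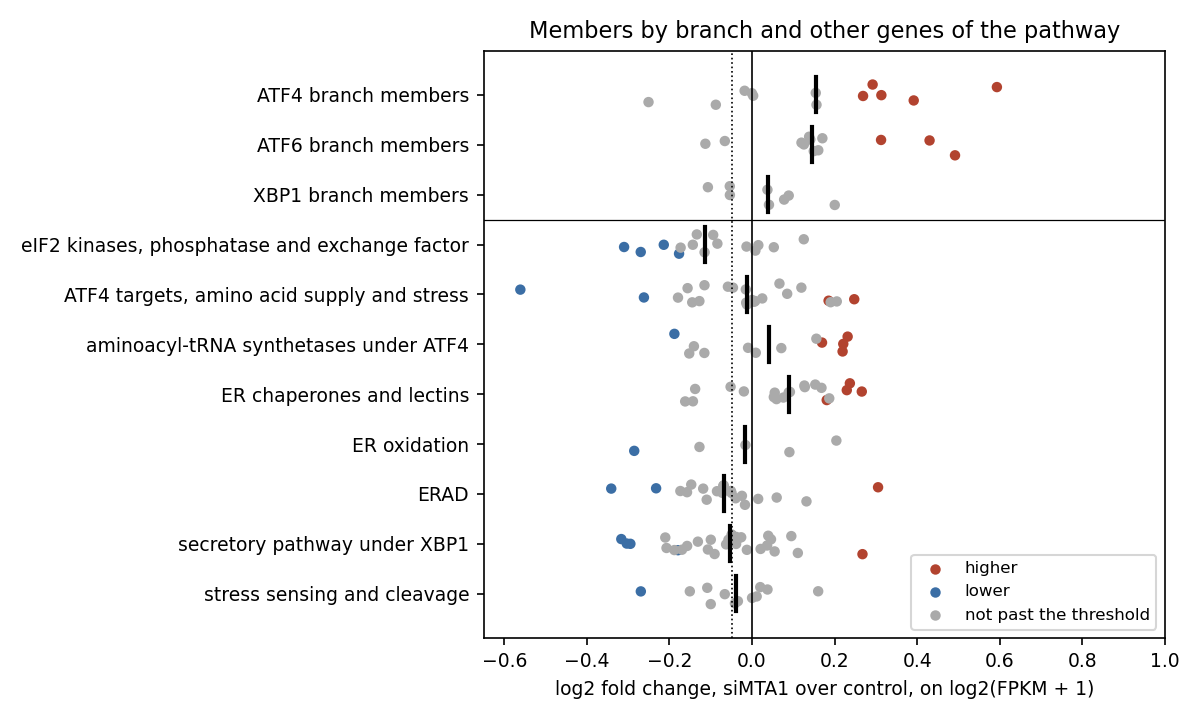
Log2 fold change, siMTA1 over control, of each tested member by branch (above the line) and of each other tested pathway gene by role (below it), with group medians as black bars and the median of all tested genes as a dotted line. Red and blue points passed the threshold in the higher and lower direction. ER chaperones and lectins have a median of 0.09 and genes of ER-associated degradation of −0.07.

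Calls among ER chaperones outside the 34 genes were in the higher direction. Of 20 tested ER chaperones and lectins, 4 were called higher and 0 lower by limma (8 and 0 at an unadjusted p under 0.05, where 11.5% of all tested genes were higher), with a median log2 fold change of 0.09. HSPA5, which codes for BiP, the central ER chaperone, had 349, 338 and 346 FPKM in the siMTA1 libraries, against 317, 302 and 293 FPKM in the control libraries. Its groups did not overlap (log2 fold change 0.18, SE 0.05, adjusted p = 0.0450), and its call held in 1 of the 6 fits with a library left out. PPIB, an ER prolyl isomerase, averaged 462 ± 26.5 FPKM with siMTA1 and 384 ± 16.1 FPKM in control (SD, n = 3, log2 fold change 0.27, adjusted p = 0.0190). The other 2 were PDIA5 (log2 fold change 0.24) and DNAJC1 (0.23). HSP90B1, or GRP94, had a log2 fold change of 0.17 and was not called (adjusted p = 0.127). DNAJB9, the cochaperone known as a sensitive XBP1 target, averaged 7.63 FPKM with siMTA1 and 8.66 FPKM in control (log2 fold change −0.16, adjusted p = 0.230). The 4 calls fell to between 0 and 3 when a library was left out, with 0 without siMTA1 library 3 and 0 without control library 2.

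Degradation and secretory genes were called at shares near those of all tested genes, which were 6.13% higher and 12.1% lower. Of 20 other tested genes of ER-associated degradation, 1 was called higher and 2 lower, shares of 5% and 10%. The higher one was OS9, the lectin that hands misfolded glycoproteins to the SEL1L complex. OS9 had 106, 111 and 111 FPKM in the siMTA1 libraries, against 82.3, 90.7 and 92.1 FPKM in the control libraries, with a wide gap between the groups (log2 fold change 0.31, SE 0.06, adjusted p = 0.00904). UBE2J1, a ubiquitin-conjugating enzyme of the ER membrane, had 12.7, 10.5 and 12.9 FPKM with siMTA1, against 15.8, 15.3 and 15.1 FPKM in control (log2 fold change −0.34, adjusted p = 0.0161), and its call ended without control library 2 (adjusted p = 0.0535). Of 30 tested genes of translocation and transport, 1 was called higher, SEC24D (log2 fold change 0.27), and 4 lower: SEC61B of the translocation channel (−0.32), SPCS3 and SPCS1 of the signal peptidase (−0.30 and −0.29) and the coat gene SEC31A (−0.18). For the 30 genes these were shares of 3.33% higher and 13.3% lower. Among 5 tested genes of ER oxidation, PRDX4 was called lower (−0.29). Among 12 tested genes of stress sensing and cleavage, BAX, a death gene and known target of p53, was called lower (−0.27).

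Upstream of ATF4, 4 of 15 tested genes were called lower and 0 higher by limma (6 and 0 at an unadjusted p under 0.05). Over all tested genes 12.1% were called lower, and 23.5% were lower at an unadjusted p under 0.05. EIF2AK4, which codes for GCN2, the kinase that senses uncharged tRNA, had 11.8, 10.4 and 11.6 FPKM in the siMTA1 libraries, against 14.0, 14.4 and 14.1 FPKM in the control libraries. The control values were nearly equal and the groups lay apart (log2 fold change −0.31, SE 0.06, adjusted p = 0.00997). It thus moved opposite to EIF2AK3, whose product phosphorylates the same site of eIF2. The kinase genes EIF2AK1 and EIF2AK2 had log2 fold changes of 0.05 and 0.01 and were not called. The other 3 lower genes were PPP1CA (−0.27), the catalytic partner of GADD34, NCK1 (−0.21) and EIF2S1 (−0.18), which codes for the phosphorylated subunit of eIF2.

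Outside the 34 genes, ATF4 targets went both ways. Of 23 tested genes of amino acid supply and stress, 2 were called higher and 2 lower, shares of 8.7% each. Over all tested genes the shares were 6.13% higher and 12.1% lower. The median log2 fold change of the 23 was −0.01. The higher ones were GPT2 (0.25), an alanine transaminase, and SLC3A2 (0.19), the heavy chain of amino acid exchangers. Lower were GDF15, a secreted stress cytokine, and BBC3 (−0.26), which codes for the death protein PUMA. GDF15 had 260.4, 287 and 267 FPKM with siMTA1, against 384, 416 and 404 FPKM in control, the largest difference of the listed pathway genes outside the 34 (log2 fold change −0.56, SE 0.06, adjusted p = 0.000473). Both GDF15 and BBC3 are also known targets of p53. Of 12 tested aminoacyl-tRNA synthetase genes, 4 were called higher and 1 lower, shares of 33.3% and 8.33%. The list was split, with a median log2 fold change of 0.04. Without overlap were 5 higher and 4 lower, where all tested genes had 13.2% and 25.9%. At an unadjusted limma p under 0.05, 5 were higher and 3 lower, where all tested genes had 11.5% and 23.5%. AARS (0.23), CARS (0.22), SARS (0.22) and GARS (0.17) were the higher ones and LARS (−0.19) the lower one. The 4 calls became 2, 0 and 0 without siMTA1 library 1, 2 and 3, and 0, 0 and 2 without control library 1, 2 and 3. ATF3, a factor induced by ATF4, averaged 18.6 FPKM in siMTA1 and in control libraries. Serine synthesis genes went both ways and none was called. PHGDH had a log2 fold change of 0.19 (limma adjusted p = 0.107), PSAT1 of −0.12 (0.138) and PSPH of −0.14 (0.121).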

How the data were processed

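Libraries were made from polyA RNA with a directional protocol and sequenced from both ends, according to protocols in the labels. Per the submitters' processing notes, the tools were TopHat2, cutadapt and edgeR and the build was GRCh38, with no roles given. The authors deposited 1 table of FPKM for 36651 genes in 6 libraries, and the sources used here do not give its counting, annotation release or strand setting. Columns were assigned to samples by name. These are not counts, so they were tested as log2(FPKM + 1) with limma 3.58.1 (R 4.3.3, empirical Bayes with trend), siMTA1 against control, on 12141 genes averaging 1 FPKM or more, with Benjamini-Hochberg adjustment over all of them. The script was tested on simulated data. Depth was implied by the steps of low values in genes shorter than 150 bases, taking 1 step as 1 fragment and the lengths of GENCODE 29; 95.1% to 97.4% of these values were then whole, beyond the rounding of the table, within 0.05 of a fragment. Coordinates and exon overlaps are from GENCODE 29, which held all 34 identifiers, and promoters from RefSeq (GRCh38.p14). Python 3.11.15, pandas 2.3.3 and matplotlib 3.10.9 were used. The 34 genes, their branches and the other lists were chosen with earlier results of these data known. The rule for naming took all 34, with values by library for those called or not overlapping between groups, MTA1, and up to 4 called pathway genes of each role, by size. Chosen after their values were seen were the library values of ATF4, ATF4 feedback, DDIT3, XBP1 and ERN1, the fifth called gene of a role (GARS, SEC31A), the hypoxia targets, and pathway genes that were not called or not tested. The alternatives were 3 pseudocounts, 3 filters, 4 scalings, limma without trend, robust or with array weights, a block for replicate number, each library left out, and another branch assignment. 1 called gene of ER-associated degradation is not reported here by name.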

Additional observations from a re-analysis of the deposited data

How the results depend on the processing

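Across 20 alternatives, ASNS, ATF5, CANX, DDIT4 and P4HB were called higher in all, and EIF2AK3 in the 19 in which it was tested. The number of members called higher was 13 with array weights, and 7 to 8 with 1 library left out. Members called lower were 1 where a mean of 0.1 FPKM (NUPR1) or 5 FPKM (TRIB3) was required, 2 with array weights (TRIB3 and SDF2L1), 1 with the replicate block (TRIB3), and 0 to 1 with a library left out, the 1 without control library 1. In the ATF4 branch alone, 1 was lower under each of these 4 settings and 0 to 1 with a library left out. The ATF6 branch had 5 higher with quantile normalization, 6 with upper-quartile scaling, 6 with median centring, 7 with array weights (and 1 lower) and 5 with the replicate block. In the XBP1 branch 1 was higher with median centring and 1 with array weights. Moving HERPUD1, SEL1L, DERL3 and XBP1 to the ATF6 branch could change no count, because none of them was called. Other pathway genes were 0 higher and 2 lower with no filter on low values, 8 lower at a mean of 0.1 FPKM, 4 lower with quantile normalization, 6 with upper-quartile scaling and 5 with median centring, 8 higher and 10 lower in limma without trend, 18 higher and 29 lower with array weights, and 1 to 7 higher and 3 to 9 lower with a library left out. Over all genes, 297 were higher and 379 lower with no filter, and 1128 higher and 802 lower with median centring. Quantile normalization gave 1011 higher and 895 lower, and upper-quartile scaling 1000 higher and 939 lower. Array weights gave 1434 higher and 2615 lower, and fits with a library left out 388 to 631 higher and 640 to 1199 lower. Among the fits with a library left out, the lowest counts came without control library 2 (388 higher, 658 lower) and without siMTA1 library 2 (428 and 640). The cause of these shifts was not tested, except that dropping the filter adds genes to the adjustment and leaving out a library removes a sample.

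Log2 fold changes near 0 changed sign, none of them called in either fit. DDIT3 became 0.016 scaled to TPM, 0.026 with quantile normalization, 0.044 with upper-quartile scaling and 0.054 with median centring, and lay between −0.030 and 0.035 with a library left out. CEBPG became 0.026 with quantile normalization, 0.026 with upper-quartile scaling and 0.036 with median centring, and ranged from −0.072 to 0.025 with a library left out. DERL1 and DERL2 became 0.00 with median centring (0.000648 and 0.000378). With a library left out, CEBPB ranged from −0.17 to 0.027, STC2 from −0.017 to 0.031, SEL1L from −0.0069 to 0.076 and SYVN1 from −0.17 to 0.0019. No label pairs the replicate numbers. The deviations of same-numbered libraries correlated at 0.33, 0.02 and 0.22 across genes, and siMTA1 libraries 1 and 3 but not 2 correlated best with their own number. With the replicate block 992 genes were higher and 2039 lower, and 10 members higher. The filter of 1 FPKM, not a test, set NUPR1 and DERL3 aside, and depth is known only as implied by the values.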

Other observations

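Several stress genes lay under the filter on low values and entered no comparison. ERN2, the IRE1 relative of gut epithelium, averaged 0.107 FPKM in siMTA1 libraries and 0.21 FPKM in control libraries. TXNDC5, a disulfide isomerase gene, averaged 0.223 and 0.30 FPKM in siMTA1 and control libraries, and CREB3L3, a membrane-bound factor of liver and gut, 0.293 and 0.227 FPKM. FGF21, a secreted hormone induced by ATF4 in other tissues, averaged 0.0433 and 0.0733 FPKM, and VLDLR was listed at 0 in all 6 libraries.

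Within the control group, library 1 was the lowest of the 3 in 14 of the 32 tested members, or 43.8%, and in 39.1% of all tested genes. It was also the highest in 10 members, or 31.25%, and in 38.6% of all tested genes. Within the siMTA1 group, library 1 was the lowest in 15 members, or 46.9%, and in 32.8% of all tested genes. It was the highest in 7 members, or 21.9%, and in 32.7% of all tested genes.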
